A study of Homo sapiens with 21 samples.

Results

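The regions described here are the CTCF sites that 501mel and SKMEL-5 share and that no library of the series listed as acetylated. They were chosen by overlap, as the regions of the 501mel CTCF list that overlapped a region of the SKMEL-5 CTCF list by at least 1 bp and that overlapped no histone H3 K27ac region of any of the 8 K27ac lists. Of 39473 regions in the 501mel CTCF list on the autosomes and X, 30343 were shared with SKMEL-5 (76.9%) and 16579 met the whole rule, 42.0% of the list and 54.6% of the shared regions. The other 13764 shared regions overlapped K27ac in at least 1 list and are called acetylated below. A second group set beside the members holds the 3210 regions that were listed in 501mel but not in SKMEL-5 and had no K27ac. CTCF and K27ac overlap chose the members, so these counts describe the choice. Over the whole list, 50.1% of regions had no K27ac.

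The series studied human melanoma lines after silencing or overexpression of the homeobox transcription factor HOXD13, and 15 of its 21 samples are used here. A375 is the line in which HOXD13 was manipulated: HA-tagged HOXD13 was profiled in 1 library (A375-HOXD13-HA), cells with GFP were profiled for open chromatin by ATAC-seq and for K27ac, and cells with the hairpins shH2, shH3 or shNTC were profiled for K27ac, with 2 replicates for shNTC alone. 501mel and SKMEL-5 each have 1 library of ATAC, K27ac and CTCF, and SKMEL-147 has 1 of ATAC and 1 of K27ac. Not analysed here are 5 IgG samples and the HA sample of A375-GFP, 6 in all, so the HOXD13-HA regions stand here without a control library. The growth protocol gives 72 h with or without 1 µg/ml doxycycline without saying for which samples. The targets of shH2 and shH3 and the assay behind each antibody library, ChIP-seq or CUT&Tag, are not in the labels, and the region names of the 501mel ATAC list contain siNTC. All 8 K27ac lists, 5 of them from A375 cells, counted alike in the rule, whatever the treatment of the cells.

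CTCF is a zinc finger protein that binds a long, largely fixed DNA motif and stops the cohesin complex as it extrudes chromatin loops, so that pairs of CTCF sites often sit at the anchors of loops and at the borders of domains. It also acts as an insulator at imprinted genes and helps to choose promoters in clustered gene families such as the protocadherins and the antigen receptor loci. K27ac is a mark of active promoters and enhancers, and many CTCF sites lie outside such elements and are bound in most cell types. A bound CTCF site usually sits in a short stretch free of nucleosomes, which ATAC-seq can detect.

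The sequence under most of these sites was not read, since the sequences at hand cover only promoters, from 250 bases before to 50 bases after a gene's start (RefSeq, GRCh38.p14, 22131 promoters of 15811 protein-coding genes). Of these, 344 promoters held the summit of a never-acetylated region. The core of the CTCF motif was searched on both strands as 12 bases, CCA, any 2 bases, AG, any 2 bases and GGC, so that it reads as GCC, any 2, CT, any 2 and TGG on the opposite strand. Both forms cannot match at the same position. It was found in 8.72% of the 344 promoters (Wilson interval 6.18 to 12.2%), in 4.25% of the 2681 promoters with an acetylated summit (3.55 to 5.08%), in 1.98% of the 15067 promoters without a CTCF region, and in 2.52% of all promoters. With a looser form, in which the A of CCA may be any base and which contains every match of the core, the shares were 26.5, 16.2, 11.1 and 12.4%. Where a promoter of a never-acetylated region had the core, its centre lay a median of 35 bp from the CTCF summit, and within 50 bp in 19 of 30. The 6 stretches printed here are from the strongest of these promoters in 501mel that had the core within 50 bp of the summit, counted at the outermost start of the gene. They show the core of CTCF regions that lie at a promoter and were listed as acetylated nowhere. The letters run 5′ to 3′ on the strand of the gene, stop before the gene's start, and carry the match in capitals.

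CD8A, alpha chain of the T cell co-receptor CD8, chr2:86808484-86808583, minus strand: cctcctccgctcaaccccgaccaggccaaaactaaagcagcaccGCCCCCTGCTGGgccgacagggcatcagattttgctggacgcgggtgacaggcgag
ERMN, a cytoskeletal protein of oligodendrocytes, chr2:157327713-157327770, minus strand: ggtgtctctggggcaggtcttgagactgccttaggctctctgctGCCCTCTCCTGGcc
MREG, melanoregulin, chr2:216034118-216034217, minus strand: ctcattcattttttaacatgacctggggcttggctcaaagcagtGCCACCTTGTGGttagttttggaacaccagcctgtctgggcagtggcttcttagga
NR2C1, an orphan nuclear receptor, chr12:95073661-95073760, minus strand: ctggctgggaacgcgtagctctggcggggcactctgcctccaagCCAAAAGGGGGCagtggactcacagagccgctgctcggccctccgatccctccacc
RUFY4, a protein with RUN and FYVE domains, chr2:218034868-218034933, plus strand: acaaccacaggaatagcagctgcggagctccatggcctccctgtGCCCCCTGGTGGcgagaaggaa
GPR37L1, an orphan receptor of glial cells, chr1:202122743-202122842, plus strand: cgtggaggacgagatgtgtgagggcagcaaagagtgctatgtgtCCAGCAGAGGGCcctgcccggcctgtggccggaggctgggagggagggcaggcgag

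In 4 of the 6 the match reads as the reverse complement on the strand of the gene (CD8A, ERMN, MREG and RUFY4), and in NR2C1 and GPR37L1 it reads forward. The CTCF fold is the authors' enrichment ratio at a region's summit, and the background or control behind it is not given. Over these promoters it was 36.3 at CD8A, 27.1 at ERMN, 22.4 at MREG, 19.3 at NR2C1, 18.6 at RUFY4 and 17.0 at GPR37L1 in 501mel. In SKMEL-5 it was 62.0 at CD8A and 19.7 at GPR37L1, the highest and lowest of the 6. The 6 sites were open in all 4 lines, and HOXD13-HA lay at none of them.

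The ATAC lists decided how open the members appeared, and they differed in length. The 501mel list held 104442 regions, the SKMEL-5 list 56333, the SKMEL-147 list 163102 and the A375-GFP list 118398. Depth is unknown, since the files hold no counts, and a region listed in a pool of cells does not tell a site open in few cells from a site that is weakly open in many. A site is called open below where it overlapped an ATAC region by at least 1 bp. K27ac at marker genes differed by line: regions within 2 kb of 7 of 7 melanocytic genes (MITF and SOX10 among them) were listed in 501mel and SKMEL-5, and regions near 5 of 5 genes of the undifferentiated state (AXL and EGFR among them) in each A375 list. A375 also listed 4 to 6 of the 7 melanocytic genes, and SKMEL-147 listed 3 of 7 and 4 of 5. Of the 5 genes of the undifferentiated state, SKMEL-5 listed 3 and 501mel 0. Each line had 1 ATAC library, so no test over samples was possible, and the intervals below are Wilson intervals of shares and Newcombe intervals of differences, which cover counting error only and treat regions as independent.

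Openness of the never-acetylated sites differed between the lists. In 501mel, 80.2% of them were open (79.5 to 80.8%), in SKMEL-147 84.6% (84.0 to 85.1%), in A375-GFP 71.4% (70.7 to 72.1%) and in SKMEL-5, with its short list, 47.8% (47.0 to 48.5%). Over all regions of the 501mel CTCF list the shares were 84.6, 76.5, 73.0 and 56.4% in the same order of lines. The members were open less often than acetylated shared regions in all 4 lines. The difference was −31.1 points in SKMEL-5 (47.8 against 78.9%, interval −32.1 to −30.1), −17.4 points in A375-GFP (71.4 against 88.7%, −18.2 to −16.5) and −14.2 points in 501mel (80.2 against 94.4%, −14.9 to −13.5). In SKMEL-147 it was −2.31 points (84.6 against 86.9%, −3.10 to −1.52).

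The small difference in SKMEL-147 did not hold at matched list length. When every ATAC list was cut to its 56333 regions with the highest −log10 q, 55.3% of the members were open in 501mel, 47.8% in SKMEL-5, 32.7% in SKMEL-147 and 34.3% in A375-GFP, so the order of the lines changed. Acetylated regions were then open in 86.7, 78.9, 64.7 and 75.7%. The differences became −31.4 points in 501mel, −31.1 in SKMEL-5, −32.0 in SKMEL-147 (−33.1 to −30.9) and −41.4 in A375-GFP. At that length SKMEL-147 was no longer apart from 501mel and SKMEL-5.

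**Figure D1:**
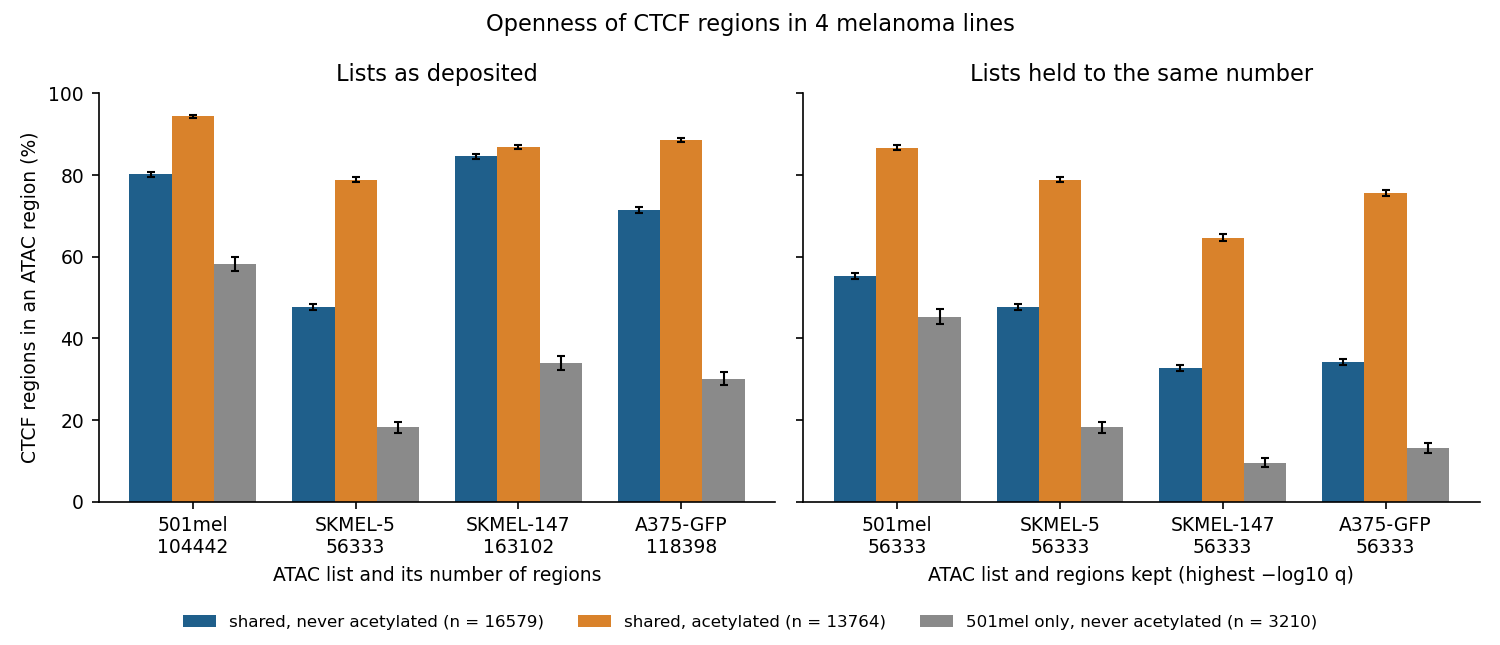
Share of CTCF regions that overlapped an ATAC region (y axis, percent) in each line (x axis), for never-acetylated shared regions, acetylated shared regions and never-acetylated regions of 501mel alone, with 95% Wilson intervals as error bars. With the lists as deposited (left) the members of SKMEL-147 reach 84.6%, close to the 86.9% of acetylated regions; with all lists at 56333 regions (right) they reach 32.7% against 64.7%.

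Sharing and openness went together among sites without K27ac. The members were open more often than the never-acetylated regions of 501mel alone in every line: 80.2 against 58.2% in 501mel, 47.8 against 18.2% in SKMEL-5, 84.6 against 33.9% in SKMEL-147 and 71.4 against 30.1% in A375-GFP. The difference ranged from 21.9 points (20.1 to 23.7) in 501mel to 50.6 points (48.9 to 52.3) in SKMEL-147. At equal list length it was 9.97 points (8.09 to 11.8) in 501mel, 29.6 in SKMEL-5, 23.1 in SKMEL-147 and 21.1 in A375-GFP, so that SKMEL-5 then had the largest of the 4. The members were also stronger, with a median fold of 9.84 in 501mel, against 5.45 in the regions of 501mel alone. No CTCF list of SKMEL-147 or A375 is used here that could show whether the members were bound there.

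Acetylation in the same line marked the most open sites. In SKMEL-147 84.6% of the members were open, and so were 84.6% of the shared regions acetylated only in other lines, while those with K27ac in SKMEL-147 itself were open in 94.1%. A375-GFP gave 71.4% for the members, 69.1% (67.1 to 70.9%) for regions acetylated only in other lines and 92.5% for regions with K27ac in A375. In 501mel the members stayed below both (80.2, 94.0 and 95.2%), and in SKMEL-5 likewise (47.8, 61.4 and 85.4%). This split used the ATAC lists as deposited and is not given at equal list length. At equal length the difference from all acetylated regions was −32.0 points in SKMEL-147 and −41.4 in A375-GFP, so the like shares in these lines may depend on list length. At the edge of the rule, the 351 members less than 50 bp from a K27ac region were open in 84.0% (501mel) and 58.7% (SKMEL-5). The 422 acetylated regions whose K27ac overlap was under 50 bp were open in 87.0 and 63.7%.

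Counted per site, 6590 members (39.7%, 39.0 to 40.5%) were open in all 4 lines, against 69.2% of acetylated regions and 46.5% of the whole 501mel list. In no line were 1215 members open (7.33%), against 2.37% of acetylated regions and 7.74% of the whole list. The next most frequent pattern after all 4 lines was openness in 501mel, SKMEL-147 and A375-GFP without SKMEL-5, at 3712 members (22.4%) against 11.2% of acetylated regions. Sites open in SKMEL-5 alone numbered 57. At equal list length, 19.2% of members and 54.4% of acetylated regions were open in all 4 lines, and 31.8% of members and 7.72% of acetylated regions in none.

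**Figure D2:**
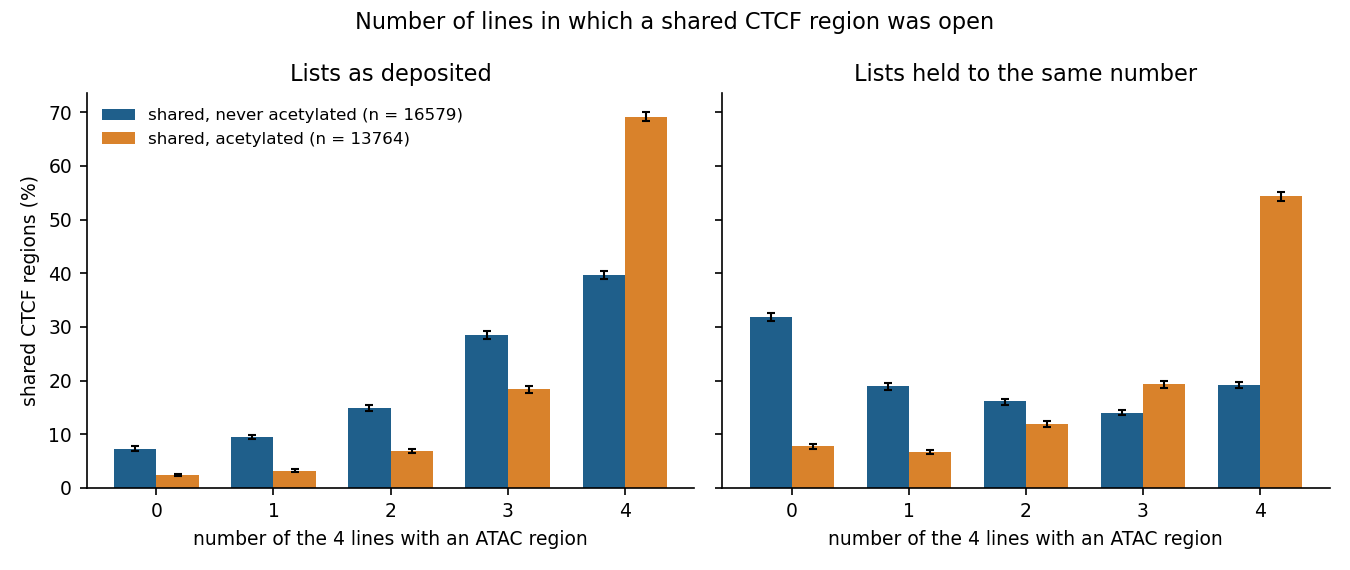
Share of shared CTCF regions (y axis, percent) by the number of lines, 0 to 4, in which they overlapped an ATAC region (x axis), for 16579 never-acetylated and 13764 acetylated regions, with 95% Wilson intervals. With the lists as deposited (left) 39.7% of never-acetylated regions are open in 4 lines; with lists of equal length (right) 19.2% are, and 31.8% are open in none.

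By fold the members were not weak CTCF sites. Presence in both CTCF lists chose them, so their strength is a description only. Their median fold was 9.84 in 501mel (quartiles 6.95 and 14.7) and 14.5 in SKMEL-5 (9.44 to 22.3), against 9.72 and 11.4 in acetylated shared regions. Within each CTCF list the median member stood at percentile 59.2 of fold in 501mel and 70.9 in SKMEL-5, against 58.5 and 59.8 for acetylated regions. The members were narrower in 501mel, with a median of 462 bp against 524 bp. The nearest SKMEL-5 summit lay closer to theirs, a median of 18 bp away against 43 bp, with 69.5 against 54.2% within 50 bp. Across the members the folds of both lines had a Spearman rho of 0.67, a description over sites that share library and background.

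Stronger members were open more often. The shared regions were put into 10 classes of about equal size by 501mel fold. From the weakest class to the strongest, the share of open members was higher at every step in 501mel (58.7 to 98.4%), SKMEL-5 (33.3 to 73.7%), SKMEL-147 (69.7 to 97.6%) and A375-GFP (55.6 to 90.2%). Members open in no line had a median fold of 6.22 in 501mel and those open in all 4 lines one of 11.9. The difference from acetylated regions of the same class was below 0 in all 10 classes of 501mel, SKMEL-5 and A375-GFP and smallest in the strongest class. It was −28.6 points in the weakest class and −0.933 in the strongest in 501mel, −28.4 and −4.06 in A375-GFP, and −38.5 and −14.1 in SKMEL-5. In SKMEL-147 it was −12.6 points in the weakest class and 2.43 (1.10 to 3.82) in the strongest, and the members were lower in 5 of 10 classes. With classes by SKMEL-5 fold instead, the members of SKMEL-147 were lower in all 10, by −13.0 points in the weakest class and −1.76 in the strongest. The values by class used the ATAC lists as deposited and are not given at equal list length.

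**Figure D3:**
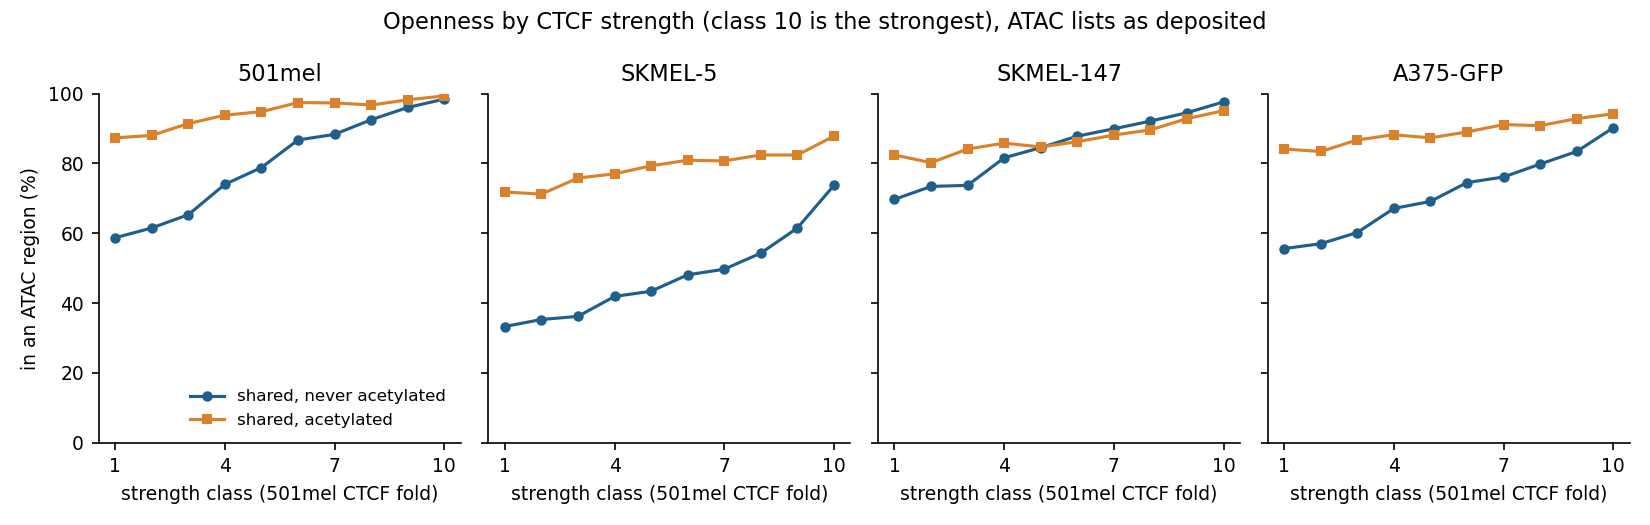
Share of shared CTCF regions in an ATAC region (y axis, percent) by strength class (x axis, 10 classes of 501mel CTCF fold, 10 is the strongest), 1 panel per line, for never-acetylated and acetylated regions, ATAC lists as deposited. In 501mel the members reach 98.4% in class 10, and in SKMEL-147 both curves meet near the middle.

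Open chromatin was narrower at the members than at acetylated regions and closer to the CTCF summit. In 501mel the widest ATAC region over an open member had a median width of 302 bp, against 706 bp at acetylated regions and 304 bp in the whole list. The nearest ATAC summit lay a median of 26 bp from the CTCF summit, against 55 bp. The widths were 237 against 437 bp in SKMEL-5 and 508 against 950 bp in A375-GFP. In SKMEL-147 the median width was 1.06 times that of the whole list at the members and 2.12 times at acetylated regions. The summit distances were 38 against 62 bp in SKMEL-5, 23 against 60 bp in SKMEL-147 and 36 against 89 bp in A375-GFP. The ATAC regions at the members stood near the middle of their lists by fold, at a median percentile of 54.7 (A375-GFP) to 62.8 (SKMEL-147), against 71.2 to 77.9 at acetylated regions.

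Few members lay at genes' ends. By summit, 11.4% (10.9 to 11.9%) lay within 2 kb of either end of a protein-coding gene, against 37.4% of acetylated regions and 22.0% of the whole list. Elsewhere in a gene lay 39.0% against 34.8%, and between genes 49.6% against 27.9%. Gene starts held most of this difference: 5.57% of members and 31.3% of acetylated regions lay within 2 kb of a start in the promoter table, while 3.93 and 4.18% lay within 2 kb of the other end alone. The median distance to the nearer gene end was 18555 bp for members and 6127 bp for acetylated regions. Never-acetylated regions of 501mel alone were placed much like the members. Of these, 13.2% lay near a gene end, 40.8% elsewhere in a gene and 46.0% between genes, and 7.88% lay within 2 kb of a start. The placing was thus not particular to shared sites.

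Members were open at every place. In 501mel 81.7% of members near a gene end, 79.1% of those elsewhere in a gene and 80.6% of those between genes were open, and in SKMEL-5 53.9, 44.7 and 48.8%. The difference from acetylated regions of the same place lay between −13.6 and −31.5 points in 501mel, SKMEL-5 and A375-GFP. In SKMEL-147 it was −9.33 points near gene ends (−11.1 to −7.65), 3.16 points in genes (1.73 to 4.59) and 0.467 points between genes (−0.894 to 1.87). With acetylated regions weighted to the places of the members, the SKMEL-147 difference turned to 0.402 points. At equal list length it was negative at all 3 places, from −21.2 to −37.7 points.

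The 308 members whose summit fell in a promoter of the table were open more often than members as a whole, in 96.4% in 501mel, 85.1% in SKMEL-5, 95.5% in SKMEL-147 and 95.1% in A375-GFP, and 4 overlapped HOXD13-HA. Their promoters had a median ratio of observed to expected CpG of 0.777, near the 0.738 of all promoters. It was 0.825 at promoters with an acetylated summit and 0.636 at promoters without CTCF. The GC content was 63.7% at the members' promoters, 62.3% at all promoters, 61.7% with an acetylated summit and 61.7% without CTCF. The strongest were those of ESS2 (fold 69.5 in 501mel), EID2B (63.4), CFAP58 (40.2), GNPTAB (38.7) and SH3GL1 (37.0), and all 5 lay within 313 bp of a K27ac region. CD8A (36.3) lay 27638 bp from the nearest K27ac region. Of the genes with a promoter in the table, 324 of 15811 held a member summit, among them 7 of 47 clustered protocadherins and CD8A, RBFOX3 and ENTPD1 from the lists of T cell, neuronal and adenosine genes.

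Along the chromosomes the members lay a median of 70610 bp apart, summit to summit (68489 to 72615 bp by order statistics), against 52104 bp between neighbouring acetylated regions. Gaps under 1 kb made up 1.33% of member pairs against 3.25% of acetylated pairs, and gaps of 100 kb to 1 Mb 38.4 against 31.9%. Gaps over 1 Mb were rarer among members, 2.63 against 4.40%. Sites of a kind lay side by side: the next shared site after a member was a member in 65.8% (65.1 to 66.5%), and the next after an acetylated region was a member in 41.1% (40.3 to 42.0%), where members made up 54.6% of shared sites. The largest gaps were 22.2 Mb on chromosome 1, 17.6 Mb on chromosome 9 and 11.1 Mb on chromosome 16. Acetylated regions had a largest gap of like length, 22367407 bp, so a gap of that size was not particular to the members.

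**Figure D4:**
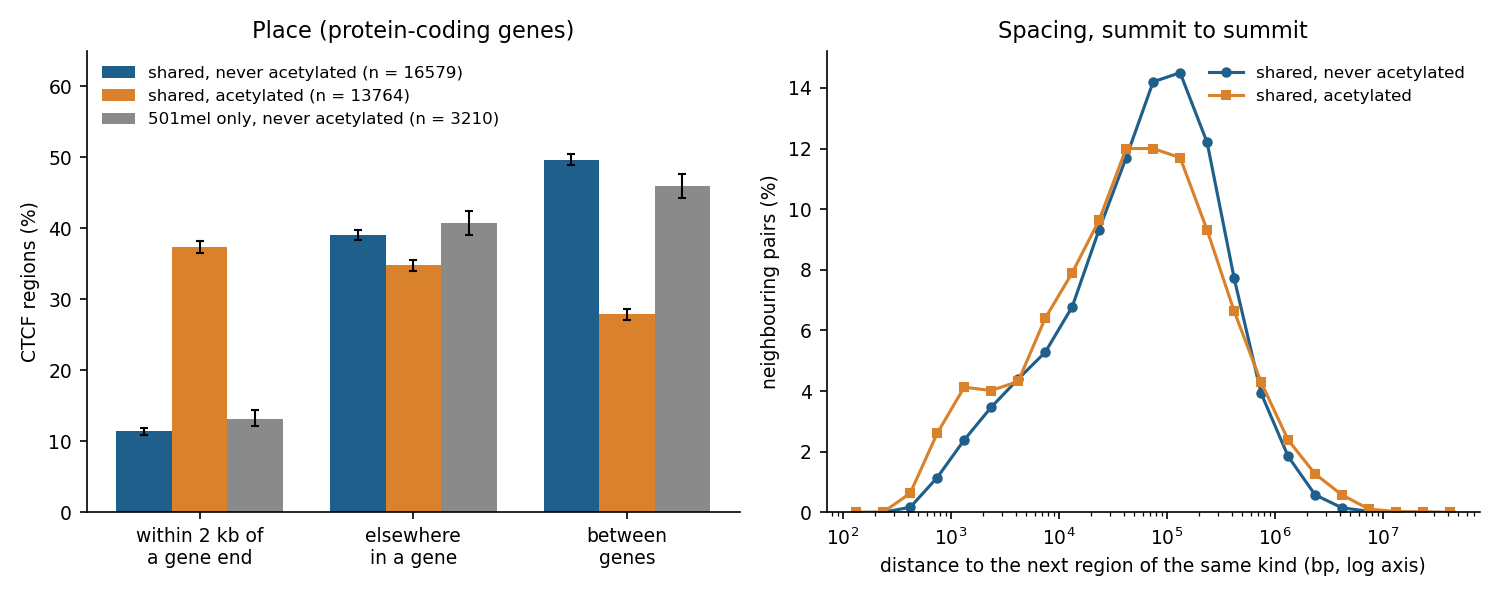
Left, share of CTCF regions (y axis, percent) by place relative to protein-coding genes, with 95% Wilson intervals; 11.4% of never-acetylated shared regions lie within 2 kb of a gene end, against 37.4% of acetylated ones. Right, neighbouring pairs (y axis, percent) by their distance (x axis, bp, log axis) in steps of 0.25 log10 units; 1.33% of never-acetylated pairs lie under 1 kb, against 3.25% of acetylated ones.

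Acetylation was seldom far away. The nearest K27ac region of any list lay a median of 7390 bp from a member (quartiles 1725 and 22272 bp), and 18.1% of the members had one within 1 kb. To K27ac of 501mel alone the median was 53210 bp and to K27ac of SKMEL-5 alone 32987 bp. Openness in 501mel was 80.0% for members within 1 kb of K27ac, 80.2% at 1 to 10 kb, 81.1% at 10 to 50 kb, 78.0% at 50 to 200 kb and 73.9% (67.6 to 79.4%) for the 211 members farther away. In SKMEL-5 it stayed between 46.2 and 49.8% over these classes. The farthest member lay 713511 bp from K27ac, at chr7:63015584-63016028, and was open in all 4 lines with a fold of 18.3 in 501mel.

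The chromosomes differed most in A375-GFP. The share of shared sites that were members ranged from 45.5% on chromosome 17 to 68.1% on chromosome 18. In 501mel 76.4 to 85.0% of members were open by chromosome and in A375-GFP 57.1 to 79.8%, with the lowest values on chromosomes 6 (57.1%), 22 (58.5%) and 14 (59.6%). In the MHC, 28 to 34 Mb of chromosome 6, 23.0% of 113 members were open in A375-GFP, against 87.6% in 501mel and 90.3% in SKMEL-147. In addition, 2747 regions of the A375-GFP ATAC list lay on alternate copies of parts of the genome, 876 of them of chromosome 6, 86 of chromosome 14 and 72 of chromosome 22, and the other 3 ATAC lists held none. Among the K27ac lists of the rule, those of shH2, shH3 and both shNTC replicates held 374, 622, 1073 and 939 such regions. Whether a site would lose its place among the members if such regions were counted at their main copy was not tested. A closed site and a site whose reads went to such a copy cannot be told apart there. Outside the MHC 61.6% of chromosome 6 members were open in A375-GFP.

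Several clusters of members without any K27ac between them lay at gene families of other tissues. Of 11602 stretches free of K27ac that held a member, 8672 held a single one, so 52.3% of the members stood alone, and 210 stretches held 5 or more, 1368 members in all. The fullest, on chromosome 14 from 106491800 to 106842843, held 23 members in 351.0 kb of the immunoglobulin heavy chain locus with 52 annotated V segments. The next, on chromosome 2, held 21 members over the immunoglobulin kappa locus. Another on chromosome 19, from 50100946 to 50143269, held 18 members in 42.3 kb at an array of 10 SNAR small RNA genes, and 15 lay in 91.0 kb around the growth hormone genes GH1, GH2, CSH1 and CSH2 on chromosome 17. Reads of near-identical copies can be split or misplaced, so single sites of the SNAR array, the growth hormone cluster and the defensin and FAM90A arrays of chromosome 8 (20 members) are uncertain.

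The antigen receptor loci, which B and T cells cut and rejoin to make antibodies and T cell receptors, were singled out after these stretches had been seen. Together the immunoglobulin heavy, kappa and lambda and the T cell receptor alpha, beta and gamma loci spanned 5140 kb and held 187 members and 19 acetylated shared regions. This came to 3.64 members per 100 kb, against 0.547 over all chromosomes up to their last listed base. In the heavy chain locus 45 members and 0 acetylated shared regions were found, and 35 of the 45 summits lay within 1 kb of a V segment, at a median of 166 bp. The alpha locus of the T cell receptor gave 31 members, 18 of them within 1 kb of a V segment, and in the gamma locus all 6 lay that close. The shares were 20 of 49 in lambda, 12 of 29 in beta and 2 of 27 in kappa.

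Openness at these sites differed by line and locus. The median 501mel fold was 10.9 in the heavy chain locus, 8.57 in kappa, 13.0 in lambda, 11.6 in alpha, 12.1 in beta and 23.4 in gamma. Of the 187, 73.3% were open in 501mel, 46.0% in SKMEL-5, 79.1% in SKMEL-147 and 39.6% in A375-GFP. A375-GFP had fewer open members than 501mel and SKMEL-147 in 4 of the 6 loci. On chromosome 14, 6 of 45 heavy chain members were open there, against 32 in 501mel and 33 in SKMEL-147, and 6 of 31 alpha members, against 23 and 26. In beta, on chromosome 7, 13 of 29 were open in A375-GFP, against 23 in 501mel and 24 in SKMEL-147. In lambda, on chromosome 22, 25 of 49 were open in A375-GFP, against 38 in 501mel, 41 in SKMEL-147 and 24 in SKMEL-5. In kappa, on chromosome 2, 18 of 27 were open in A375-GFP, as many as in SKMEL-147 (18) and more than in 501mel (15), and in gamma 6 of 6 in every line. The part of the alternative copies of chromosome 14 in these values was not tested. Without both loci 65.7% of chromosome 14 members were open in A375-GFP. Of the 187 members 1, in kappa, overlapped HOXD13-HA.

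Clustered protocadherins, cell surface proteins of which each neuron expresses a few, were open at more sites in A375-GFP than in the other lines. Their locus on chromosome 5 held 10 members and 12 acetylated shared regions. In 7 of the 10 the summit lay within 200 bp of an end of the protocadherin gene it was assigned to (PCDHB13, PCDHB14, PCDHGA2, PCDHGB1, PCDHGB2, PCDHGA10 and PCDHGA12). Member summits lay in the promoters of PCDHB13, PCDHB14, PCDHGA2, PCDHGB1, PCDHGB2, PCDHGA10 and PCDHGB3. The member at PCDHGB3 is not among the 7, since it was assigned to PCDHGA5, the gene it lay in. In 501mel the folds of the 10 lay between 4.67 and 11.6, with PCDHGB2 alone above the members' median of 9.84. In SKMEL-5 they reached 19.1 to 23.0 at PCDHGA2 and PCDHA2. Open were 9 of 10 in A375-GFP, 5 in 501mel, 4 in SKMEL-147 and 2 in SKMEL-5, and none was open in all 4 lines.

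At the imprinted IGF2 and H19 locus on chromosome 11, where CTCF on the maternal copy insulates the growth factor gene IGF2 from enhancers, 6 members and 0 acetylated shared regions were found. The first 3 lay at H19: chr11:1998819-1999278 with folds of 6.99 in 501mel and 21.9 in SKMEL-5, chr11:1999768-2000374 with 10.1 and 21.9, and chr11:2001984-2003096 with 23.2 and 42.5. The strongest, whose summit lay 921 bp beyond the upper coordinate of H19, was open in 501mel, SKMEL-147 and A375-GFP. The weakest was open in A375-GFP alone. The other 3 lay inside the longer gene annotated as INS-IGF2, with folds of 3.58, 10.2 and 18.0 in 501mel. All 3 were open in SKMEL-147 and A375-GFP, and the strongest also in 501mel and SKMEL-5. The SKMEL-5 fold of a member is the highest of any SKMEL-5 region that overlapped it. The equal folds of 21.9 at H19 may therefore come from a single SKMEL-5 region, which was not tested. MAGEL2, an imprinted gene of chromosome 15, had a member with a fold of 24.0 in 501mel that was open in no line. It lay 1274 bp from the nearer of the gene's start and end.

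The HOX clusters are the group to which HOXD13 belongs. HOXA, HOXB, HOXC and HOXD had 1, 4, 1 and 2 members, against 5, 5, 5 and 2 acetylated shared regions. The strongest lay 2375 bp from HOXB9, at chr17:48618322-48619186, with folds of 24.9 in 501mel and 30.0 in SKMEL-5, and was open in all 4 lines. The HOXA site lay inside HOXA13 (fold 14.7 in 501mel) and was open in none, and of the HOXD pair the site in HOXD11 (10.1) was open in 501mel, SKMEL-147 and A375-GFP and the site near HOXD9 (6.22) in none. HOXD13-HA overlapped none of the 8.

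NTM, a gene of the IgLON family of neuronal adhesion molecules on chromosome 11, held 8 members and 2 acetylated shared regions. In 5 of the 8 the region lay between 131668573 and 131695279, and the strongest of these had a fold of 21.1 in 501mel and 30.1 in SKMEL-5. Open were 7 of 8 in SKMEL-147 and A375-GFP, 6 in 501mel and 3 in SKMEL-5. The weak site at chr11:131671344-131671731 (fold 5.45 in 501mel) was open in none, and HOXD13-HA overlapped none of the 8.

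The strongest members in 501mel were open in all 4 lines. They were sites in PER2, a gene of the circadian clock (chr2:238256285-238257400, fold 83.9 in 501mel and 113.0 in SKMEL-5), near LONRF2 (79.6 and 83.6), near the Wnt ligand gene WNT8B (78.2 and 69.0), near the galectin gene LGALS2 (71.1 and 86.4) and at ESS2 (69.5 and 77.5). In SKMEL-5 the highest folds stood near LGALS9 (126.7), CST1 (125.1), BEST3 (113.2) and GATAD1 (113.1), beside NR4A1 (161.9). At NR4A1 the SKMEL-5 region (chr12:52023583-52026744) overlapped K27ac and covered 2 regions of 501mel, and the fold of the member in 501mel was 9.08. In all, 730 members (4.40%) had a SKMEL-5 region that overlapped K27ac although their 501mel region did not, and the open shares without them were 80.2% in 501mel, 47.6% in SKMEL-5, 84.6% in SKMEL-147 and 71.4% in A375-GFP. The strongest members open in no line were sites on chromosome 20 at 29443110 to 29443777 (fold 33.4), near SMAD6 (29.4, where the SKMEL-5 region overlapped K27ac), near MAGEL2 (24.0), near FAM81A (20.9) and near DUS3L (20.9).

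Genes with many members were long. Of 19970 protein-coding genes 4692 (23.5%) had a member between their ends, and their median length was 76.3 kb, against 17.3 kb for genes without. KAZN held 14, the splicing regulator RBFOX1 12, GSE1 and the phosphodiesterase gene PDE4D 11 each, CAMTA1 and the ion channel gene ASIC2 10 each, THSD4 and the phospholipase gene PLCB1 9 each, and NEO1 and SLC35F3 8 each. RBFOX1, ASIC2, NEO1 and SLC35F3 held no acetylated shared region, and PDE4D held 9. Per length, among the 135 genes with 5 or more members, ANKRD24 led with 5 members in 42.1 kb, followed by ARVCF with 5 in 51.7 kb, the axon guidance gene RGMA with 5 in 53.9 kb, PIWIL3 with 5 in 55.7 kb and RASGEF1A with 6 in 72.5 kb.

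Counting the whole gene and 50 kb on either side of it, 69.7% of protein-coding genes had a member (median 1.00 member). The lowest shares were those of angiogenesis factors and receptors, with one near 10 of 24, and of melanocytic genes, with one near 9 of 20 (median 0 in both). The growth factor gene VEGFA and the semaphorin gene SEMA3F had 5 members each nearby. Within 100 kb it was 11 of 20 and 18 of 24, against 16695 of all 19970 genes. Near melanocytic genes were OCA2, with 3 members, SLC45A2 with 3, RAB27A with 2 and TRPM1 with 2. Undifferentiated melanoma genes had a member in 14 of 19, with TEAD4 (5) and CCN2 (4) ahead. The adenosine pathway stood at 14 of 15, led by the ectonucleotidase gene ENTPD2 with 7 members, and chemokine genes at 11 of 19, led by CXCL14 with 5.

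Lists of other tissues and of common functions ranged around the value of all genes. The large adhesion genes, with a median length of 1118 kb, had a member in 18 of 19, led by NTM with 8 members, CTNNA2 with 6 and NRXN3 with 5. Neuronal genes stood at 16 of 20, with 13 members near RBFOX3 and 8 near the calcium channel gene CACNA1C, and no acetylated shared region within 50 kb of either. T cell genes stood at 9 of 12, hepatocyte genes at 10 of 12, keratinocyte genes at 7 of 11, fibroblast genes at 7 of 12 and endothelial genes at 6 of 12, where all 4 members in VWF, the von Willebrand factor gene, were open in every line. Keratin genes stood at 18 of 25, clustered protocadherins at 40 of 53, HOX genes at 27 of 39, imprinted genes at 16 of 25, beta-globin genes at 4 of 5 (through 1 member), cohesin and CTCF genes at 15 of 18, housekeeping genes at 11 of 15, ribosomal protein genes at 19 of 25 and large X-linked loci at 4 of 8. FIRRE, an X-linked RNA gene with an array of CTCF sites, held 14 acetylated shared regions and no member. The lists differ in gene length, and many neighbours share a member, so these counts are descriptions.

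Tagged HOXD13 was rare at the members. Of the 16579, 213 overlapped a HOXD13-HA region of A375 (1.28%, 1.12 to 1.47%), against 739 acetylated shared regions (5.37%, 5.00 to 5.76%), a difference of −4.08 points (−4.51 to −3.68). The share was 3.58% over the whole 501mel CTCF list and 2.37% among the never-acetylated regions of 501mel alone. From the other side, 0.730% of the 29176 HOXD13-HA regions overlapped a member. The difference was present both inside and outside A375-GFP ATAC regions. Among open sites 1.49% of members and 5.73% of acetylated regions overlapped HOXD13-HA, and among sites that were not open 0.780 and 2.51%. The never-acetylated regions of 501mel alone stood at 5.91% (4.59 to 7.58%) among open sites, near the acetylated regions. Among sites that were not open they stood at 0.846%, near the members. A low share at open sites without K27ac was therefore seen in the shared sites only. The degree of openness was not matched. A375-GFP ATAC regions stood at a median percentile of 54.7 by fold at open members, against 72.8 at open acetylated regions. The HOXD13-HA difference lay between −3.06 and −5.87 points in the 10 classes of CTCF strength, where the members' share was between 1.03 and 1.59%. In classes by SKMEL-5 fold it lay between −1.52 and −6.90 points, with a members' share of 0.705 to 2.11%. By place the members had 1.11% near gene ends, 1.22% in genes and 1.37% between genes, against 2.68, 6.81 and 7.16% of acetylated regions.

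**Figure D5:**
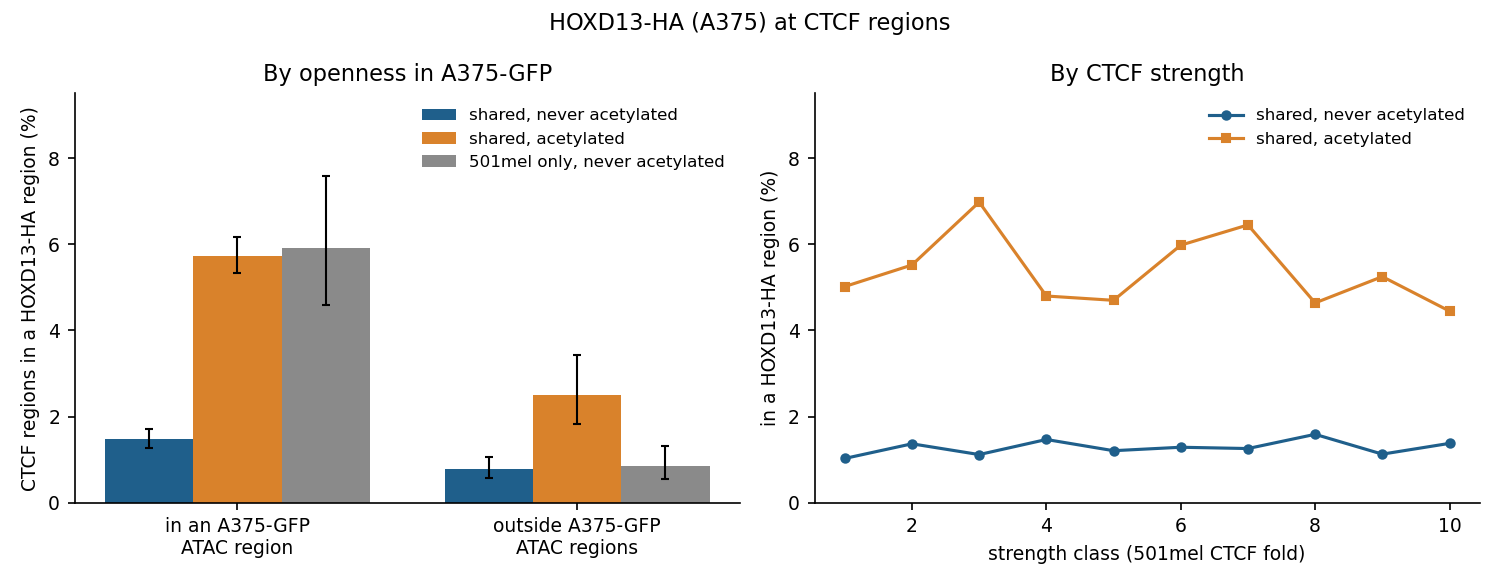
Share of CTCF regions that overlapped a HOXD13-HA region of A375 (y axes, percent). Left, inside and outside A375-GFP ATAC regions, with 95% Wilson intervals: never-acetylated shared regions lie at 1.49 and 0.780%, acetylated shared regions at 5.73 and 2.51%. Never-acetylated regions of 501mel alone lie at 5.91 and 0.846%. Right, by strength class of 501mel CTCF fold (10 is the strongest), where the never-acetylated regions stay between 1.03 and 1.59%.

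The 213 members with HOXD13-HA were otherwise like the rest in strength and place. Their median CTCF fold in 501mel was 10.1, and 21 lay near a gene end, 79 elsewhere in a gene and 113 between genes. In A375-GFP 176 of them (82.6%) were open. The HOXD13-HA summit lay a median of 82 bp from the CTCF summit, with 31.5% within 50 bp, against 102 bp and 30.3% at acetylated regions. Their median HOXD13-HA fold was 3.71, against 3.40 at acetylated regions and 3.93 in the whole list. The highest was 10.0, in the E3 ligase gene RNF24 (chr20:4013895-4014461), followed by 9.41 at a site 142454 bp from PAX3, a transcription factor of the neural crest and melanocytes (chr2:222057382-222057859), and 8.71 in FBLN1, 8.54 in CPNE4 and 8.53 near AGTPBP1. The PAX3 site was open in 501mel and SKMEL-147 but not in A375-GFP, and of the 5 only the CPNE4 site was open in all 4 lines.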

How the data were processed

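The authors deposited a list of enriched regions for each of 15 libraries. The tools named are MACS2, Bowtie2, Trim Galore, SAMtools and deepTools, with the build hg38, per the submitters' processing notes; versions, settings and controls are not given in the sources used here. Each deposited list gives a score, a fold (a ratio at the summit) and −log10 p and q, used to describe and filter regions of the same list; every list starts at a −log10 q of about 1.30. Regions were kept on the autosomes and X and counted as overlapping from 1 bp. Genes, promoters and sequences are those of RefSeq, GRCh38.p14. The files hold no counts, so depth is unknown. Shares carry 95% Wilson intervals, their differences Newcombe intervals; both cover counting error only. Overlap and distance code was tested on simulated regions against bedtools (Python 3.11.15, pandas 2.3.3, numpy 2.4.6). Named genes and regions are the leading ones by number of members, members per 100 kb, CTCF fold and HOXD13-HA fold, and promoter sequences are those with the highest fold. The members and the 21 gene lists were chosen with earlier results of these data known; the alternatives for differences (equal ATAC list lengths, weighting by strength and place), the antigen receptor loci and the MHC values by line were added after seeing the data. Alternatives are given at the end.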

Additional observations from a re-analysis of the deposited data

How the results depend on the processing

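The number of members stayed between 12696 and 20136 under 11 other rules (16757 and 16887 without each shNTC replicate) and fell to 10400 with CTCF lists at a −log10 q of at least 10, which leaves fewer regions. Under that CTCF rule the open share rose to 90.9% in 501mel, 57.1% in SKMEL-5, 91.9% in SKMEL-147 and 80.6% in A375-GFP, and the differences from acetylated regions were −6.36, −25.7, −0.439 and −11.6 points. With ATAC lists at that minimum the shares were 63.9, 21.3, 80.4 and 55.9% and the differences −26.0, −29.3, −3.67 and −27.6 points. Equal ATAC list lengths gave 55.3% (501mel), 32.7% (SKMEL-147) and 34.3% (A375-GFP), with differences of −31.4, −32.0 and −41.4 points. With the CTCF summit inside an ATAC region the shares were 77.2, 44.7, 82.4 and 70.0%, and the SKMEL-5 difference was −27.1 points. Weighting acetylated regions to the places of the members turned the SKMEL-147 difference to 0.402 points, and to places and strength classes to 0.652; in A375-GFP these gave −15.8 and −15.6, and the cause was not tested. With K27ac of 501mel and SKMEL-5 alone as the rule the differences were −33.8 in SKMEL-5, −1.35 in SKMEL-147 and −15.7 in A375-GFP.

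HOXD13-HA lay at 0.326% of members with its list at a −log10 q of at least 10, at 0.796% with the CTCF summit inside, and at 1.49 and 0.780% inside and outside A375-GFP ATAC regions. The difference from acetylated regions was −1.68 points with that list, −2.48 with the summit inside, −5.23 weighted to places, −5.31 weighted to places and strength and −3.32 with the stricter CTCF lists. Members near a gene end made up 6.67% at 1 kb, 22.7% at 5 kb and 22.8% with all RefSeq genes, and the median spacing was 73375 bp with regions under 500 bp apart joined. Of 66 gene list counts at other windows 37 moved by over 1.5 times. No paired analysis was possible because replicate numbers exist for shNTC K27ac alone. Depth could not be weighed, and 1 library per line and target leaves the spread between cultures unknown.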
